A study of Mus musculus with 7 samples.

Results

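The comparison sets cells labelled Cspg4+ against cells labelled Cspg4- within one mouse line, B6,FVB-Tg(Cspg4-cre)1Akik/J, on 3 of the 7 microarrays of the series. All arrays of that line were taken: 1 array of Cspg4+ cells and 2 arrays of Cspg4- cells, of which 1 held the Sdc4+ and 1 the Sdc4- fraction. The labels call every population lineage traced and give the Sdc4 fraction of both Cspg4- samples but not of the Cspg4+ sample. The Cre of this line is driven by the Cspg4 promoter, so the name Cspg4+ refers to the traced lineage; the reporter, the age of the mice and the dissected tissue are not given in the sources used here, and the series title speaks of dermal myogenic precursors. The other 4 arrays held Myf5SOR+ Sdc4+ cells of the B6.129S4-Myf5tm3(cre)Sor line, B195AP+ Sdc4- cells of the B195AP-Cre line, and Sdc4+ and Sdc4- cells of Crl:CD1(ICR) mice, which carry no Cre in the labels. Each population had 1 array, labelled replicate 1, and the design text gives 8 to 10 animals per phenotype and 10 to 200 ng of total RNA as input.

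Cspg4, also called NG2, is a membrane chondroitin sulphate proteoglycan that mural cells of small vessels (pericytes) and several progenitor populations carry on their surface. Pericytes wrap capillaries, and cells traced through Cspg4 promoter activity have been followed in muscle and skin as possible mesenchymal and myogenic progenitors. Sdc4 is a heparan sulphate proteoglycan found on satellite cells, the resident stem cells of skeletal muscle, and on many fibroblasts.

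Values are log2 of the scanner's processed signal minus the log2 75th percentile of the same array, so a value of 0 means the array's own 75th percentile. A level is compared only between arrays for the same probe. Fold sizes were kept to 17614 genes whose probe was well above background on all 3 arrays of the line. For each gene the text gives the level in Cspg4+ cells, the level in both Cspg4- fractions, and the distance from Cspg4+ to the nearer of them, which is 0 when the Cspg4+ level lies between them. The file headers give each of the 7 arrays its own row and column position on a slide, and the slide number itself was not compared between them. All Sdc4+ arrays were in row 1, and the Sdc4- arrays and the Cspg4+ array in row 2, so row and Sdc4 label cannot be told apart. Cspg4- Sdc4- and Cspg4+ were in columns 2 and 3 of row 2, and the part of position in their likeness was not tested. Repeat spots of one probe differed by a median SD of 0.07 to 0.08 log2 within these arrays, which is a technical error only. The Cspg4+ array had more dim signal: 57.2% of its spots were well above background against 46.4% (Cspg4- Sdc4+) and 49.0% (Cspg4- Sdc4-), and its median processed signal was 21.5 against 9.40 and 12.6 intensity units. Of 55681 probes, 5302 were well above background only on the Cspg4+ array, 589 only on the Cspg4- Sdc4+ array and 702 only on the Cspg4- Sdc4- array.

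Cspg4+ and Cspg4- Sdc4- cells had the most alike profiles of all 7 populations. Over 17307 genes the SD of the log2 difference between them was 0.37, and 2.50% of genes differed by 2-fold or more. Between Cspg4+ and Cspg4- Sdc4+ cells the SD was 0.56 and 6.75% of genes differed by 2-fold, and between both Cspg4- fractions the SD was 0.51 and the share 5.32%. Against the other lines the share was 8.30% for CD1 Sdc4-, 10.3% for Myf5SOR+ Sdc4+, 12.5% for CD1 Sdc4+ and 16.5% for B195AP+ Sdc4- cells.

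The gene that names the populations was moderately higher in Cspg4+ cells. Cspg4 (probe at mm9 chr9:56746627-56746686) read 1.14 in Cspg4+ cells, 0.34 in Cspg4- Sdc4+ cells and 0.65 in Cspg4- Sdc4- cells, which is 1.74-fold and 1.41-fold. Both Cspg4- fractions therefore carried Cspg4 RNA well above background, and outside the line the level ran from -0.58 in Myf5SOR+ to 1.90 in B195AP+ cells. The fitted difference of 0.65 ± 0.30 (SE, 1 against 2 arrays) had a limma adjusted p of 1. Sdc4 separated both Cspg4- fractions by their label, at 6.28 against 5.10, and the Cspg4+ level of 5.40 lay between them, nearer to the Sdc4- fraction. The myogenic regulators Myf5, Pax7, Pax3 and Myod1 were not well above background on any of the 3 arrays.

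Genes that mark mural cells did not separate with Cspg4. Of 20 listed mural and pericyte genes 15 were measured: 4 were above both Cspg4- fractions, 3 were below both and the remaining 8 lay between, with a median difference of 0.08 against 0.05 over all genes tested. Over all those genes 39.1% were above both fractions, 24.5% below both and 36.4% between. The list counts that follow are to be read beside these shares. The 4 that were higher were Cspg4 itself, Gja4 (-2.63 against -3.10 and -3.21), which encodes a vascular gap junction protein, the metalloreductase gene Steap4 (2.17 against 1.85 and 1.82) and Cd248 (5.31 against 5.04 and 5.06), which encodes endosialin. The PDGF receptor gene Pdgfrb, a defining pericyte marker, read 3.64 against 3.75 and 3.27, and Notch3 read 1.00 against 1.01 and 0.83. Anpep (4.13 against 4.30 and 4.45) and Mcam (3.94 against 4.08 and 4.12) were below both fractions by small amounts. Smooth muscle contractile genes were also split, with 5 of 11 measured members above both fractions, 3 below and 3 between. Distances to the nearer fraction ran from -0.17 to 0.42 in this list, with 2 members above both by 0.20 or more and none below by that margin. Among the lower ones Acta2, the smooth muscle actin, read -0.74 against -0.06 and -0.67, and Tagln read -0.99 against -0.37 and -0.82.

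All 3 arrays carried the RNAs of dermal fibroblasts. Of 20 fibroblast genes 18 were measured on all of them, among them the collagen gene Col1a1 (6.11 against 5.78 and 6.01), the stromal receptor gene Pdgfra (4.98 against 4.63 and 4.96) and Thy1 (5.91 against 5.77 and 5.70). Of these members 11 were above both Cspg4- fractions and 1, the transcription factor gene Twist2 (3.97 against 4.59 and 4.26), was below. Those are 61.1% and 5.56%, against 39.1% and 24.5% of all genes tested. The differences were mostly small: 3 of the 18 were above both by 0.20 or more, namely the matricellular gene Postn (-1.33 against -2.47 and -2.13), Pi16 (3.12 against 2.40 and 2.59), which encodes a secreted peptidase inhibitor, and Mfap4 (0.98 against -0.40 and 0.65). Over all genes tested 14.5% were above both by that margin and 9.91% below, a margin chosen after the values were seen.

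By size, 102 genes were 2-fold or more above both Cspg4- fractions (0.579% of the genes tested) and 68 were 2-fold or more below both (0.386%). Against single fractions the shares were larger: 2.93% higher and 3.73% lower than Cspg4- Sdc4+, and 1.35% higher and 1.11% lower than Cspg4- Sdc4-. Both single comparisons share the Cspg4+ array. No gene passed limma at an adjusted p under 0.05 in either direction (0.0% each way; the smallest adjusted p was 0.299), while 397 genes were higher and 366 lower at an unadjusted p under 0.05. That fit has 1 residual degree of freedom, from the difference between the Sdc4 fractions, so the differences below are of these arrays and were not tested over replicate Cspg4+ samples. Under quantile normalization the split turned to 75 higher and 335 lower, and in the authors' deposited values to 46 and 192.

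**Figure D1:**
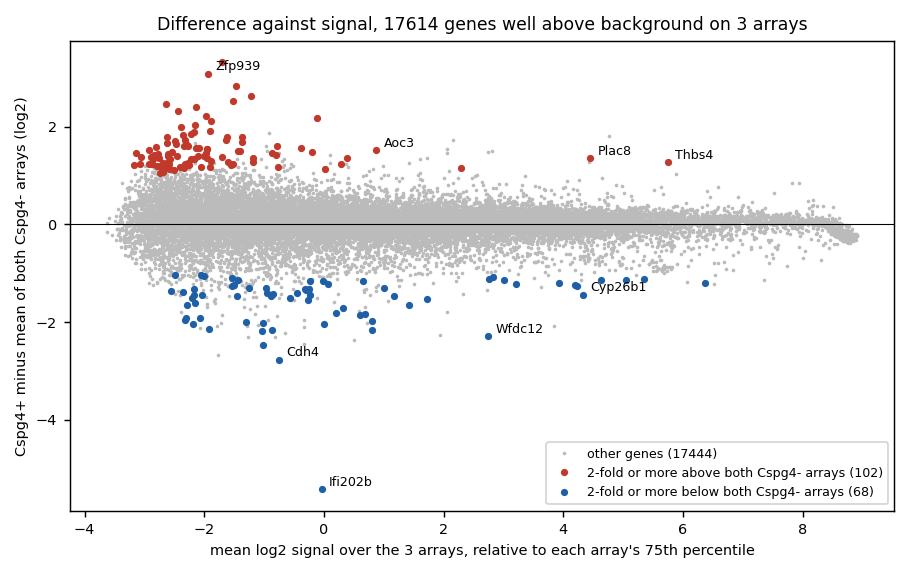
Each point is 1 gene: the x axis gives its mean log2 signal over the 3 arrays relative to each array's 75th percentile, and the y axis the log2 difference between Cspg4+ and the mean of both Cspg4- arrays. The 102 genes 2-fold or more above both Cspg4- arrays (red) lie mostly at low signal, and the 68 below both (blue) run across the range, with Ifi202b lowest.

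Higher and lower genes lay at different signal levels. Of the 102 higher genes, 62 had a mean level under -2 over the 3 arrays and only 7 had a mean at or above 0, which is 0.0649% of the 10780 genes at that level. Of the 68 lower genes 26 had a mean at or above 0, or 0.241%. The dim signal of the Cspg4+ array was raised at that low level, as given above, and its part in the higher calls was not tested. A further probe measured 9 of the higher genes, and it was on the same side of both fractions for 6 and 2-fold away for 2. For 16 of the lower genes a further probe was measured, with 12 on the same side and 7 of them 2-fold away.

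The gene furthest below both Cspg4- fractions was Ifi202b, an interferon-inducible gene whose protein binds DNA (probe at mm9 chr1:175892953-175893982). It read -3.64 in Cspg4+ cells, 1.30 in Cspg4- Sdc4+ cells and 2.24 in Cspg4- Sdc4- cells, a distance of 30.9-fold to the nearer fraction. A second probe gave 1.30 and 2.20 in the Cspg4- fractions and was not well above background in Cspg4+ cells (-4.49). Cspg4+ cells thus differed in this gene from both other populations labelled with the same strain. Between the other lines the level ran from -5.84 to 5.06: the CD1 fractions were the bright ones, and B195AP+ and Myf5SOR+ cells were at background. The fitted difference was -5.42 ± 0.44 (SE, 1 against 2 arrays; limma adjusted p = 0.299).

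Cdh4, which encodes R-cadherin (probe at mm9 chr2:179630828-179630887), read -2.59 against -0.25 and 0.59, and a second probe was at background in Cspg4+ cells and well above it in both Cspg4- fractions. Igfbp5, a secreted binding protein of insulin-like growth factors (mm9 chr1:72904829-72904888), read -0.53 against 1.09 and 1.52. Cyp26b1, a retinoic acid-degrading enzyme (mm9 chr6:84521952-84522011), read 3.36 against 4.79 and 4.82. Each of these Cspg4+ values lay well outside the gap between both Cspg4- fractions. Cyp26b1 was also lower in Cspg4+ cells than in all 4 populations of the other lines, where it ran from 3.85 to 6.59. Amhr2, the anti-Müllerian hormone receptor gene, read -2.49 against -0.34 and -0.29, and Artn, which encodes the neurotrophic ligand artemin, read -2.66 against 0.97 and -1.35. The remaining genes among the 15 lowest with a symbol in the reference table were Lmod3, Mylk2 and Unc13b, Tent5c, Slc17a9 and the myeloid receptor gene Lilrb4a (-0.64 against 1.56 and 0.88), beside the protease inhibitor and mast cell genes given next. A second, dimmer Lilrb4a probe read -2.82 against -1.61 and -2.47, closer to the Sdc4- fraction.

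Brighter genes with lower Cspg4+ levels included 3 that encode secreted proteins. Wfdc12, a whey acidic protein family protease inhibitor (mm9 chr2:164015895-164015954), read 1.22 against 3.28 and 3.74. Slpi, the secretory leukocyte protease inhibitor (mm9 chr2:164179849-164179908), read 5.56 against 6.90 and 6.63. Lrg1, a leucine-rich glycoprotein of the acute phase, read 2.39 against 3.60 and 3.64. The Cspg4+ level was below both Cspg4- fractions by 4.18-fold, 2.10-fold and 2.31-fold in that order. Aldh3a1, an aldehyde dehydrogenase gene, read 2.255 against 3.39 and 3.38. In the other lines Aldh3a1 ran from 1.522 to 2.246, so both Cspg4- fractions were the highest of the 7 arrays. For Lrg1 the Cspg4+ level was likewise above 3 of the 4 other arrays. The lysosomal glycoprotein gene Cd68 read 1.33 against 2.32 and 2.34. A second, dimmer Cd68 probe read -1.92 against -1.97 and -1.72, between both fractions. These bright genes other than Wfdc12 were taken from the 20 lowest with a mean level at or above 0, a rule chosen after the values were seen.

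**Figure D2:**
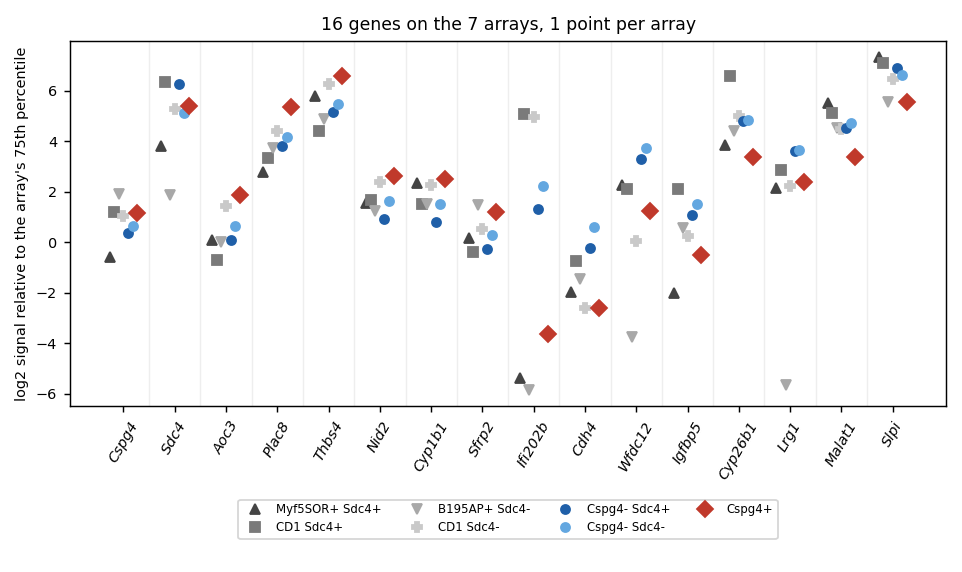
Log2 signal relative to each array's 75th percentile (y axis) for 16 genes (x axis), with 1 point per array: red diamonds for Cspg4+, blue circles for both Cspg4- fractions and grey marks for the other lines. Cspg4+ lies above both blue circles for Cspg4, Aoc3, Plac8, Thbs4, Nid2, Cyp1b1 and Sfrp2, between them for Sdc4, and below them for the last 8 genes.

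Several genes of mast cells, the histamine-storing immune cells of skin, were lower in Cspg4+ cells or at background there. Of 12 listed, 4 were measured on all 3 arrays: 2 were below both Cspg4- fractions, 1 above both and 1 between. Over all genes tested the shares were 24.5%, 39.1% and 36.4%. Cpa3, Mcpt4 and Cma1 are outside these 4, because they were not well above background in Cspg4+ cells. Hdc, the histamine-forming enzyme (mm9 chr2:126419516-126419575), read -2.31 in Cspg4+ cells against 0.30 and -0.61, and Tpsb2, a mast cell tryptase gene (mm9 chr17:25504819-25504878), read -2.37 against 0.05 and -0.76. Cpa3, the mast cell carboxypeptidase gene, was not well above background in Cspg4+ cells (-5.79) and read -1.12 and -0.74 in both Cspg4- fractions, a difference of at least 7.13-fold. The chymase genes Mcpt4 and Cma1 were likewise not well above background in Cspg4+ cells. Mcpt4 read -0.85 and -3.33 in both Cspg4- fractions, at least 3.19-fold higher as a mean but at least 1.35-fold for the Sdc4- fraction alone. Cma1 read -1.58 and -3.08, with bounds of 2.70-fold and 1.60-fold in the same order. Here the first bound is the mean of both Cspg4- levels over the higher of the Cspg4+ level and the lowest level well above background on that array. Of 12 mast cell genes 4 were well above background in Cspg4+ cells and 8 in each Cspg4- fraction, and 2 were at background on all 7 arrays. The summed linear level of the list, in multiples of each array's 75th percentile, was 1.25 in Cspg4+ cells against 4.53 and 2.68. It ran from 1.00 to 2.91 in the other lines, so the Cspg4+ value lay inside their range. Gata2 went the other way (-1.17 against -1.49 and -1.93), and Kit lay between both fractions. In sorted bulk samples fewer cells of a type and less RNA per cell cannot be told apart.

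**Figure D3:**
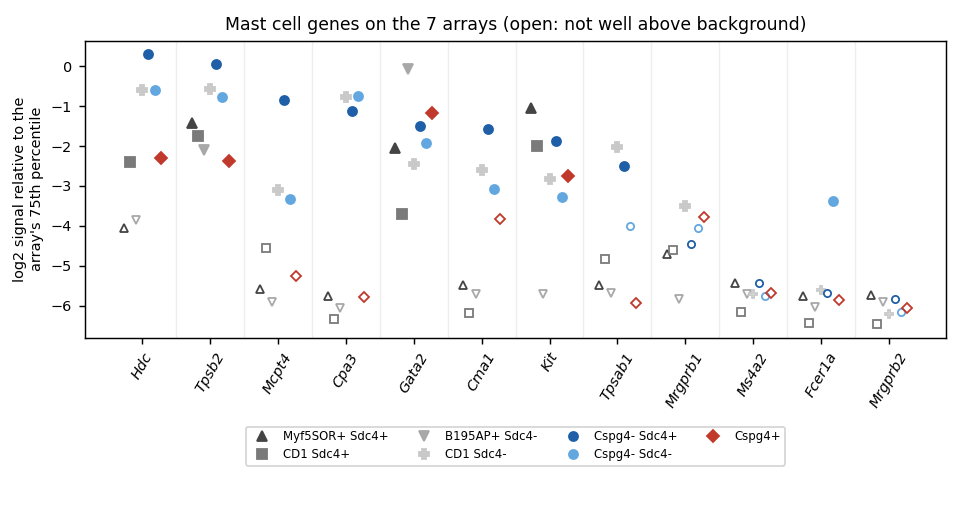
Log2 signal relative to each array's 75th percentile (y axis) of the 12 mast cell genes (x axis) on the 7 arrays, 1 point per array, with open marks where no probe of the gene was well above background. Cpa3, Mcpt4 and Cma1 are filled for both Cspg4- fractions (blue circles) and for CD1 Sdc4- (plus signs) and open for Cspg4+ (red diamonds).

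Other immune markers did not share one pattern. Of 20 macrophage and myeloid genes 8 were measured, with 2 above both fractions and 4 below, beside 39.1% and 24.5% of all genes tested. Cd68 (its brighter probe only), Fcer1g (-2.77 against -1.30 and -2.28) and Itgam (5.21 against 5.50 and 5.45) were below. Aif1 (-1.51 against -1.97 and -2.47) and the complement gene C1qb (-2.11 against -2.86 and -3.10) were above. The pan-leukocyte gene Ptprc and the macrophage genes Lyz2, Mrc1 and Spi1 were not well above background on any array. The summed level of the myeloid list was 46.3 in Cspg4+ cells against 70.7 and 54.8.

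The 15 highest genes with a symbol in the reference table were 1.42 to 3.04 log2 above the nearer fraction. Features without such a symbol, or with a clone name only, were passed over in naming: 18 of them ranked beyond the last of the 15 highest, with a largest distance of 3.18, and 4 beyond the last of the 15 lowest. They are counted among the 102 and 68. Zfp939, a zinc finger gene (mm9 chr7:46732717-46732776), read 0.11 in Cspg4+ cells against -2.93 and -3.01. Gpr182, an atypical chemokine receptor gene, read 0.66 against -0.92 and -0.89, and Hoxc10, a posterior homeobox gene, read -0.44 against -2.49 and -1.95. In 14 of these 15 genes both Cspg4- fractions were below -1.5, and in 13 the Cspg4+ level was also above all 4 other arrays. The others were Fam166b, Wnk4, Prickle2, Pnliprp2, Otud7b, Draxin, Csprs, Tsc2, Spata33, Nkx3-2, Irf8 and Sh2d2a. Another Csprs probe read -2.59 against -2.75 and -2.34, between both fractions. With normexp background correction 3 of the 15 kept a 2-fold distance.

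Few bright genes were as far above both fractions. Aoc3, a vascular amine oxidase gene (mm9 chr11:101200545-101200604), read 1.88 against 0.10 and 0.64, and a second probe read -0.57 against -1.33 and -0.59, so that its distance to the Sdc4- fraction was small. Plac8 (mm9 chr5:100982797-100982856) read 5.35 against 3.81 and 4.18 and had a second probe with the same order (1.38 against -0.40 and 0.17). Thbs4, the matricellular thrombospondin 4 (mm9 chr13:93521565-93521624), read 6.59 against 5.17 and 5.48. These 3 genes were 2.37-fold, 2.24-fold and 2.17-fold above the nearer fraction, and all 3 were also above all 4 other arrays. Qprt, an enzyme gene of NAD synthesis, was 2.18-fold above (1.09 against -0.24 and -0.03). The basement membrane gene Nid2 (2.63 against 0.91 and 1.63), Cyp1b1, a cytochrome P450 gene (2.49 against 0.81 and 1.50), the extracellular superoxide dismutase gene Sod3 (2.26 against 0.66 and 1.33) and the glypican gene Gpc3 (1.38 against 0.25 and 0.50) were just under 2-fold. CD1 Sdc4- cells read higher than Cspg4+ cells for Qprt (1.38) and Gpc3 (1.47). The bright genes of this paragraph were taken from the 20 highest with a mean level at or above 0, chosen after the values were seen.

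Cell cycle genes were the list with the most one-sided difference. Of 34 listed genes 32 were measured, 29 were above both Cspg4- fractions and none was below both, against 39.1% and 24.5% of all genes tested. The median difference was 0.44, or 0.51 against the Sdc4+ and 0.31 against the Sdc4- fraction. The distances were small and even: the largest was 0.49, 26 of the 32 were 0.20 or more, and no member reached 2-fold or passed limma. A further probe was measured for 6 of the 29 genes and was above both fractions for all 6.

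The members cover the whole cycle. Mcm6, a subunit of the replicative helicase, read 5.15 against 4.36 and 4.66, and Pcna, the DNA polymerase clamp, read 4.66 against 4.15 and 4.29. Among genes of entry into mitosis, the cyclin gene Ccnb2 read 3.72 against 2.97 and 3.29, the kinase gene Cdk1 read 1.20 against 0.41 and 0.79, and Aurka read 2.66 against 2.11 and 2.24. The spindle checkpoint kinase gene Bub1 read 0.18 against -0.68 and -0.26. The order was Cspg4+, then Cspg4- Sdc4-, then Cspg4- Sdc4+ in each of these genes. Mki67, the proliferation antigen gene, had a wider gap between the Cspg4- fractions (2.68 and 3.54) than from there to Cspg4+ cells (3.74). Kif11, E2f1 and Rrm2 lay between both fractions. Cspg4+ cells were not the highest of the series for any of the 32 genes: the summed level was 267 in Cspg4+ cells against 179 and 217 in the Cspg4- fractions, and 202 in Myf5SOR+, 358 in CD1 Sdc4+, 401 in CD1 Sdc4- and 512 in B195AP+ cells.

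**Figure D4:**
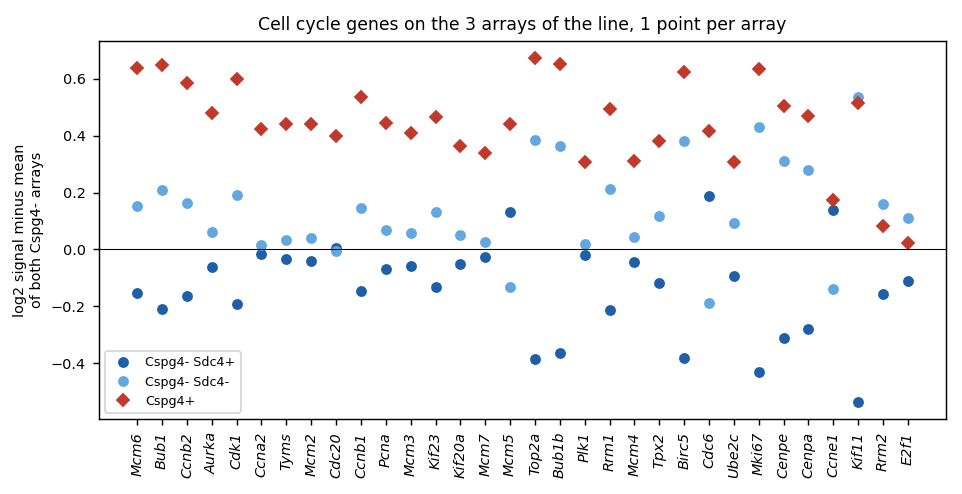
Log2 signal minus the mean of both Cspg4- arrays (y axis) for the 32 cell cycle genes measured (x axis, ordered by distance from Cspg4+ to the nearer fraction), 1 point per array. The red diamonds of Cspg4+ lie above both blue circles for 29 genes and between them for Kif11, Rrm2 and E2f1.

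The promoters of the 3 members furthest above both fractions are shown because genes that move together through the cycle often share short promoter elements. The 250 bases before the RefSeq start are given 5′ to 3′ in the direction of the gene, from the GRCm38.p6 build, for Mcm6 (chr1:128359706-128359955, minus strand), Bub1 (chr2:127831860-127832109, minus strand) and Ccnb2 (chr9:70421555-70421804, minus strand). Capitals mark CCAAT boxes (CCAAT, or ATTGG on the other strand) and the cell cycle homology region, CHR (TTTGAA, or TTCAAA on the other strand).
Mcm6: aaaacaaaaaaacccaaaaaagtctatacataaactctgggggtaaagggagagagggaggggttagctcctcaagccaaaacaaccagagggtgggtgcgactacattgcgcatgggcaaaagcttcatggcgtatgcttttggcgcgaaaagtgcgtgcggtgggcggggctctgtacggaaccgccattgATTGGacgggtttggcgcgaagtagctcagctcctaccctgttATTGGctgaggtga
Bub1: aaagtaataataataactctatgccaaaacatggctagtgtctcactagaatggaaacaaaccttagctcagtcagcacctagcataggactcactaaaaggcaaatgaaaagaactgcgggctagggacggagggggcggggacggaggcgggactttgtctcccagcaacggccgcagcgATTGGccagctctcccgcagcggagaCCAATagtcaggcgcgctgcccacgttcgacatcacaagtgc
Ccnb2: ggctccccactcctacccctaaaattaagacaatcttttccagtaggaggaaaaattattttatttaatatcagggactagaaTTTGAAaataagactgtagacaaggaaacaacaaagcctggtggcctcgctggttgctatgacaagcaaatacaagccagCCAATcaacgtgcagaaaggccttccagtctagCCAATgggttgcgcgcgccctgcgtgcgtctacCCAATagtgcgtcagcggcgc
Mcm6 and Bub1 held 2 CCAAT letters each and no CHR letters in this window, and Ccnb2 held 3 CCAAT and 1 CHR. CCAAT letters on either strand were in 23 of the 28 cell cycle promoters that could be matched (82.1%) and in 34.5% of all 27025 RefSeq promoters of this length. CHR letters were in 8 of 28 (28.6%) and in 16.3% of all. The motifs do not overlap in their letters, and a match is a description of the sequence only.

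Interferon response genes were also mostly higher. Of 25 listed 24 were measured, 18 were above both fractions and 2 below, with a median difference of 0.32. The antiviral oligoadenylate synthetase gene Oas1a read 4.64 against 3.72 and 3.81, Ifi44 read 1.50 against 0.67 and 0.88, Oasl1 read 3.42 against 3.02 and 2.77, and the transcription factor gene Irf7 read 2.60 against 2.24 and 1.90. The 2 below both were Irf1, an interferon and NF-kappa-B target (3.42 against 5.68 and 3.68), and Rsad2 by 0.04. Ifi202b, which is not on the list, went the opposite way as given above. The summed level was 255.0 in Cspg4+ cells and 255.0 in the Cspg4- Sdc4+ fraction, where Irf1 was brighter, and 191 in the Sdc4- fraction. The list's level in the other lines ran from 77.5 in CD1 Sdc4- to 320 in B195AP+ cells. No member reached 2-fold or passed limma.

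Wnt pathway genes had a median difference of 0.34, with 12 of 18 measured members above both fractions and 1 below. Those are 66.7% and 5.56%, against 39.1% and 24.5% of all genes tested. Sfrp2, a secreted frizzled-related protein gene, read 1.18 against -0.26 and 0.27. Dkk2, a dickkopf gene, read 0.85 against -0.65 and 0.28. Wif1, the Wnt inhibitory factor gene, read 5.96 against 2.91 and 5.41. For Wif1 the gap between both Cspg4- fractions was far larger than that from the nearer one to Cspg4+ cells. The ligand gene Wnt5a read 2.37 against 1.72 and 1.83, and the transcription factor gene Lef1 read 0.44 against -0.45 and 0.13. The member below both was the ligand gene Wnt11 (-3.37 against -1.33 and -2.96). Genes of the dermal papilla, the signalling fibroblasts of the hair follicle, share Wif1, Lef1, Rspo2 and Rspo3 with this list and had 7 of 13 measured members above both and 1 below (median 0.32).

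Matrix genes split by class, beside 39.1% above both and 24.5% below both over all genes tested. Of 20 collagen genes 17 were measured, 12 were above both fractions and 1 below, with a median of 0.22 and only 4 above by 0.20 or more. Col12a1, a fibril-associated collagen gene, had the largest distance (1.19 against -0.68 and 0.59), and the collagen VI genes Col6a3 (7.31 against 6.97 and 7.06) and Col6a2 (5.50 against 5.27 and 5.28) followed. Among integrins and basement membrane genes 7 of 21 were above and 7 below both (33.3% each). The higher ones included Nid2, the collagen receptor gene Itga11 (4.70, or 0.70 above the nearer fraction), and the laminin genes Lama4 (3.16 against 2.54 and 2.69) and Lamb1 (6.83 against 6.13 and 6.41). Lama5 (-2.49 against -1.75 and -1.57), Itga7, a laminin receptor gene of muscle (1.35 against 2.34 and 1.95), and Itga4 (-0.37 against 0.36 and 0.20) were the lowest. Of 19 measured matrix proteases and inhibitors 5 were above both and 9 below, with a median of -0.13 (1 of the 9, Timp1, was saturated on all 3 arrays). Distances to the nearer fraction ran from -0.37 to 0.51 in this list, with 3 members above and 4 below both by 0.20 or more. Among the lower members, the stromelysin gene Mmp3 read 8.31 against 8.68 and 8.74. Timp2 read 8.05 against 8.68 and 8.28, and Mmp14 read 4.02 against 4.34 and 4.24.

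Among proteoglycan core proteins, the family of Cspg4 and Sdc4, 8 of 14 measured genes were above both fractions and none was below. The share above was 57.1%, against 39.1% above and 24.5% below of all genes tested. Gpc3 had the largest distance, followed by Cspg4, Gpc4 (1.09 against 0.73 and 0.44) and Bgn (4.74 against 4.46 and 4.49). The other syndecan genes had small distances: Sdc1 read 4.50 against 4.79 and 4.38, Sdc2 read 2.62 against 2.61 and 2.41, and Sdc3 read 2.74 against 2.81 and 2.48. Sdc1, Sdc3 and Sdc4 lay between both fractions.

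Growth factor signalling was uneven. Of 26 measured PDGF, TGF-beta and BMP genes 7 were above both and 9 below, with a median of -0.18. Those are 26.9% and 34.6%, against 39.1% and 24.5% of all genes tested. The ligand gene Bmp2 (3.05 against 4.31 and 3.86) and the BMP antagonist gene Grem1 (5.99 against 6.93 and 6.65) were lowest, and the antagonist gene Fst (5.02 against 4.53 and 4.69) and the ligand gene Pdgfd (-1.94 against -2.88 and -2.27) were highest. The BMP targets Id1 (2.37 against 3.77 and 2.48) and Id3 (3.86 against 5.31 and 3.87) were far below the Sdc4+ fraction and close to the Sdc4- fraction. Notch pathway genes gave 2 above and 3 below of 11 measured.

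Inflammatory and stress genes lay lower against the Sdc4+ than against the Sdc4- fraction. Chemokine and cytokine genes had a median of -0.67 against the Sdc4+ fraction and 0.08 against Cspg4- Sdc4- cells. Of 22 measured, 5 were above both and 9 below (22.7% and 40.9%, against 39.1% and 24.5% of all genes tested). Distances to the nearer fraction ran from -0.37 to 0.42, with 4 genes above and 4 below both by 0.20 or more. Among the lower ones, the chemokine gene Ccl2 read 6.59 against 8.68 and 6.78, and Il6 read 0.88 against 2.34 and 1.09. The NF-kappa-B inhibitor gene Tnfaip3 read 3.04 against 4.72 and 3.31. Immediate early and stress genes had medians of -0.23 and 0.01, with 4 above both and 10 below of 22 (18.2% and 45.5%). Their distances ran from -0.74 to 0.52, with 3 genes above and 3 below both by 0.20 or more. Atf3 (0.85 against 3.71 and 1.60) and Klf4 (1.84 against 4.19 and 2.17) were lowest. Unfolded protein response genes had medians of -0.21 and 0.13: Chac1 read 1.38 against 4.35 and 1.24.

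The sarcomere genes measured lay between both fractions, or below both, more often than above. Of 37 sarcomere genes 16 were well above background in Cspg4- Sdc4+ cells, 27 in Cspg4+ cells and 29 in Cspg4- Sdc4- cells, beside 34 in CD1 Sdc4- cells. The 16 genes that were measured on all 3 arrays are those the Sdc4+ fraction let through. Of them 8 lay between both fractions, 6 below both and 2 above both, beside 36.4%, 24.5% and 39.1% of all genes. The Cspg4+ level was above Cspg4- Sdc4+ for 10 and below Cspg4- Sdc4- for 14, with medians of 0.36 and -0.72. The fast troponin gene Tnnc2 read -0.65 in Cspg4+ cells against -1.75 and 1.68, Tnni2 read -0.91 against -2.16 and 0.83, and the skeletal actin gene Acta1 read -1.02 against -2.43 and 0.71. In CD1 Sdc4- cells the same 3 genes read 3.89, 3.09 and 3.19, the highest of the series. Myl4, the embryonic light chain gene, was below both (0.53 against 1.20 and 2.14).

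Among regulators of differentiation, Myog, the myogenin gene, was not well above background in Cspg4+ cells (-5.22) and read -2.68 and -1.62 in the Cspg4- fractions, a difference of at least 3.05-fold as a mean and 2.12-fold for the nearer fraction. Of 21 commitment genes 10 were measured, 1 was above both, 5 below and 4 between, beside 39.1%, 24.5% and 36.4% of all genes tested. By 0.20 or more, 1 was above and 1 below both. Dok7, a neuromuscular junction gene, was the lowest (-1.60 against -0.18 and -0.93). Of 20 satellite cell genes 11 were measured, with 1 above both and 3 below (9.09% and 27.3%). The share below was near that of all genes. Fgfr4, the higher one, read -1.68 against -3.30 and -2.72, and Itga7 was lower as given above. The receptor gene Met read -1.36 against -0.86 and -0.96, and Vcam1 read 0.69 against 2.90 and 0.94. Fgfr4 was 1 of the few list members that were 2-fold away from both fractions, and the others were Esam, Hdc and Tpsb2. Fgfr4 and Esam, the higher ones, were dim on both Cspg4- arrays. The lowest levels well above background there were -3.61 (Cspg4- Sdc4+) and -3.92 (Cspg4- Sdc4-). The part of the raised dim signal of the Cspg4+ array in these distances was not tested.

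**Figure D5:**
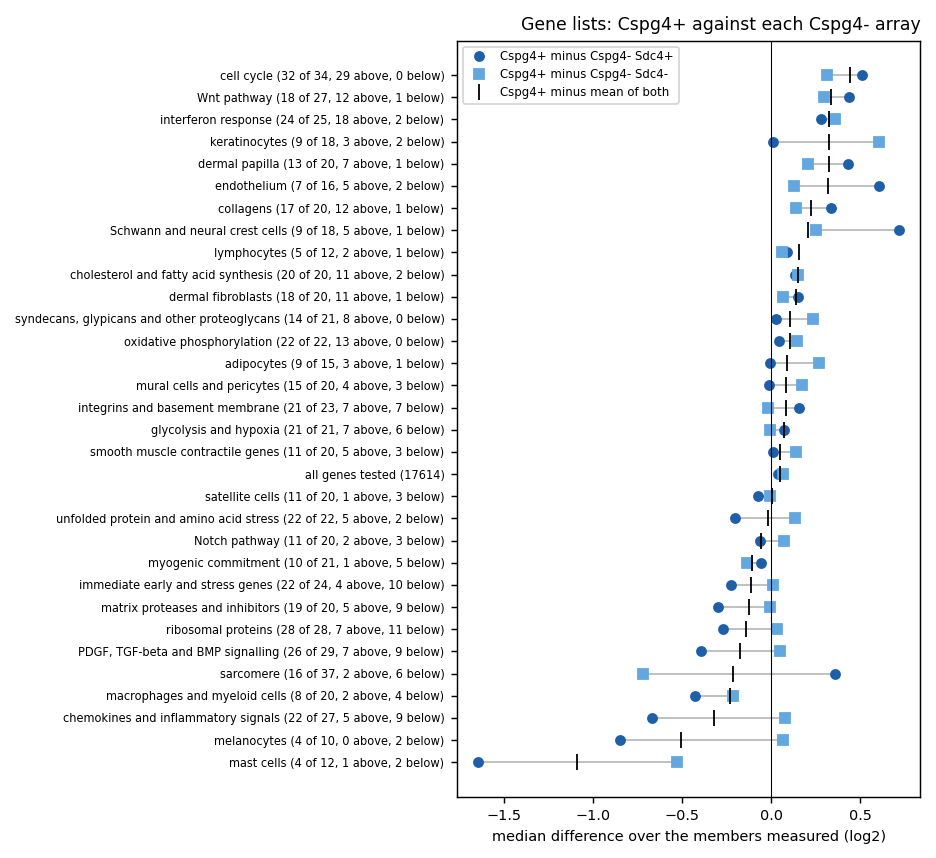
Median log2 difference (x axis) over the measured members of each gene list (y axis, with the number measured of those listed and the number above and below both Cspg4- arrays): dark circles against Cspg4- Sdc4+, light squares against Cspg4- Sdc4-, black ticks against their mean. Cell cycle, Wnt and interferon lists lie right of 0 against both fractions, mast cells left of 0 against both, and sarcomere genes on opposite sides.

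Genes of other cell types that a sort could carry gave mixed counts, beside 39.1% above both and 24.5% below both over all genes tested. Of 16 endothelial genes 7 were measured and 5 were above both fractions: Esam read -2.26 against -3.37 and -3.63, Pecam1 read -1.37 against -2.30 and -2.07, and Egfl7 read 3.48 against 2.69 and 3.16, while Eng and Flt1 were below both. Esam was dim on both Cspg4- arrays, as given above. The summed endothelial level was 40.3 in Cspg4+ cells against 30.1 and 37.7. Of 18 Schwann and neural crest genes 9 were measured, with 5 above both, 1 below and 3 between (median 0.20). S100b (-0.02 against -1.02 and -0.92) and Egr2 (4.87 against 3.56 and 4.35) were among those above, and 4 were above by 0.20 or more. Of 18 keratinocyte genes 9 were measured, with 3 above both and 2 below, and the keratin gene Krt17 read -0.49 in Cspg4+ cells against 0.99 and -2.77. Of 10 melanocyte genes 4 were measured and none was above both; Gpnmb read 4.54 against 5.37 and 5.03. No erythroid gene of 10 was measured on all 3 arrays, and of 12 lymphocyte genes 5 were, with 2 above and 1 below. The lipid enzyme gene Lpl (3.32 against 2.57 and 2.58) and the adipogenic receptor gene Pparg (2.21 against 2.01 and 1.78) were above both among 9 adipocyte genes, of which 3 were above and 1 below. The part of these cell types in the differences above was not tested.

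Metabolic genes had small differences, and their counts stand beside 39.1% above both and 24.5% below both over all genes tested. Oxidative phosphorylation genes were above both fractions in 13 of 22 and below in none, at a median of 0.11 and with distances of at most 0.24 (Uqcrc2, 4.74 against 4.44 and 4.50). Cholesterol and fatty acid synthesis genes were above both in 11 of 20 and below in 2, with a median of 0.15. Glycolysis and hypoxia genes gave 7 above and 6 below of 21 (33.3% and 28.6%). Ribosomal protein genes gave 7 above and 11 below of 28, with small distances; 20 of these probes were saturated on at least 1 of the 3 arrays, so their levels are bounds and are not ranked.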

How the data were processed

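Each of 7 populations had its RNA on 1 Agilent SurePrint G3 Mouse 8x60K array, read in 1 colour. Per the file headers, the deposited intensity values are processed signals of Agilent Feature Extraction 11.5.1.1, background-corrected by that software and not normalized between arrays, with probe positions in mm9. The authors' deposited series table holds log2 values, with lumi named in the submitters' processing notes; its columns have medians of 5.15 to 5.17, track the processed signals by rank and differ from them in slope, and their exact scaling stays unknown. It was used as an alternative.

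From the intensities, control and outlier spots were left out, repeat spots averaged, and log2 signal minus the array's 75th percentile taken; only probes well above background on the 3 arrays of the line were kept. Where several probes of a gene passed that filter, the brightest over the 3 arrays stood for the gene. Names came from a RefSeq table (27656 of 55681 probes by accession, 3401 by symbol, 321 by synonym) and otherwise from the file. The Cspg4+ array was fitted against both Cspg4- arrays with limma 3.58.1 in R 4.3.3 (lmFit, eBayes, Benjamini-Hochberg over 17614 genes), and the script was tested on simulated data. Named are the sorting and tracing genes, the 15 genes with a symbol in the reference table (clone names passed over) furthest above and below both fractions, up to 8 genes each way at background on one side, up to 4 members of each of 32 lists by distance, and further list members as needed. Alternatives changed the scaling, background correction, filter, probe rule and model. Members and lists were chosen with earlier results of these data known. Depth on arrays is limited by the number of arrays: 1 per population, so p-values rest on the spread between both Cspg4- fractions.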

Additional observations from a re-analysis of the deposited data

How the results depend on the processing

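The counts of genes 2-fold or more above and below both Cspg4- fractions (102 and 68) moved by more than 1.5 times under several settings. They were 75 and 335 with quantile normalization, 46 and 192 in the deposited table, 13 and 16 with normexp, 3124 and 177 where detection on any 1 array sufficed, 64 and 58 with all 7 arrays required, and 7 and 26 among genes with a mean level at or above 0 (chosen after seeing the data). Leaving out either Cspg4- array gave 237 to 516 higher and 196 to 657 lower genes (237 and 196 without Cspg4- Sdc4+, 516 and 657 without Cspg4- Sdc4-), since only 1 array then has to differ. Of the 102 and 68, 74 and 67 remained under quantile normalization and 13 and 16 under normexp; 11 and 10 were called in all 4 other scalings, among them Aoc3, Plac8, Zfp939, Gpr182 and Fam166b above and Ifi202b, Cdh4, Amhr2, Wfdc12, Igfbp5, Cyp26b1, Lilrb4a and Malat1 below. The limma counts of 0 and 0 became 1335 and 13 with the looser background filter and 0 and 1 with a trended prior variance; both 7-array models and the other settings gave 0, with adjusted p from 0.0906 upward. Over the 31 gene lists with measured members, 24 of 310 alternative medians, in 14 lists, had the opposite sign: 14 of 62 with an array left out and 10 of 248 otherwise. Without Cspg4- Sdc4+ the chemokine median turned from -0.32 to 0.08, and without Cspg4- Sdc4- the sarcomere median from -0.22 to 0.36. The keratinocyte median, positive against both fractions, went from 0.32 to -0.0128 with normexp and -0.12 with all 7 arrays required. Satellite cells went from 0.00 to -0.16 with quantile normalization, mural cells from 0.08 to -0.03 with normexp. Of 67 genes followed (65 named by distance, Cspg4 and Sdc4) 2 changed sign: Csprs, to -0.0408 with all 7 arrays required, and Sdc4, from -0.29 to 0.30 without Cspg4- Sdc4+. The cell cycle list kept 28 or more of 32 genes above both fractions in the quantile, deposited and normexp values. Shares of all genes above and below both, 39.1% and 24.5% in the main setting, also moved. They were 34.8% and 31.4% with quantile normalization, 34.5% and 31.7% in the deposited table, and 38.7% and 25.9% with normexp. The limma fit was not run without either Cspg4- array because no residual degree of freedom is left. No paired analysis was possible because each population has 1 array, all numbered 1.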

Other observations

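Nuclear long noncoding RNA was lower in Cspg4+ cells along a stretch of chromosome 19. All 11 minus-strand probes between mm9 chr19:5795713-5802326, where Malat1 lies, read lower in Cspg4+ cells than in both Cspg4- fractions, by 0.39 to 1.22 against the Sdc4+ and by 0.02 to 1.37 against the Sdc4- fraction; the probe with the smallest differences was saturated on all 3 arrays. The Malat1 probe read 3.37 in Cspg4+ cells against 4.51 and 4.72, the lowest of the 7 arrays, where the other lines ran from 4.47 to 5.50. Nearby, 9 minus-strand probes between mm9 chr19:5834543-5842845 cover the Neat1 region. The 3 probes named by coordinates there were lower by 1.42 to 1.60 than either fraction, while the 6 probes named Neat1 or NEAT1 were within 0.25 of the Sdc4+ fraction and lower by 1.18 to 1.40 than the Sdc4- fraction. Of the 68 features counted as 2-fold or more below both, 4 carry different names within these 2 stretches and so may not be separate genes. Among 359 lncRNA genes 28.7% were above and 35.1% below both fractions by any amount, against 39.2% and 23.3% of 12375 protein-coding genes. At 2-fold or more the order was the opposite: 6 lncRNA genes (1.67%) were above both and 1 (0.279%), Malat1, was below both. The protein-coding shares at 2-fold were 0.404% above and 0.218% below. These stretches were chosen after their values were seen.

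Genes at background on one side were far more often bright in Cspg4+ cells. There were 3402 genes well above background in Cspg4+ cells and on no probe in either Cspg4- fraction, with a bound of 2-fold or more against the mean of both fractions for 1221 and against the nearer one for 939, and 145 genes of the opposite kind, with 45 and 13. Largest in the first set were Ffar2, a short-chain fatty acid receptor gene, at least 16.3-fold higher, Akr1b7 (at least 11.3-fold), Pigb, Misp, Pak6, Gdf5, Prl3a1 and Olah (at least 7.18-fold), and 7 of these 8 were well above background on the Cspg4+ array alone of the 7. Largest by the mean of both fractions in the second set were Cpa3, Ghrl, Coch, Klkb1, Cpeb2, Mcpt4, Myog and Tfap2e. Cpa3 kept a bound of 6.24-fold against the nearer fraction, but for Ghrl the mean gave 5.39-fold and the nearer fraction 1.65-fold, and for Coch 5.21-fold and 1.55-fold; both were bright in the Sdc4+ fraction (0.37 each) and dim in the Sdc4- fraction (-3.04 and -3.13). The raised dim signal of the Cspg4+ array moves with the first set, and its part was not tested.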
